A study of Homo sapiens with 36 samples.

Results

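The 48 genes described here drive the cell cycle and copy the DNA: cyclins and their kinases, the transcription factors that time them, the loading and firing of replication origins, the supply of nucleotides, and the proteins that build the spindle and part the chromosomes. They were chosen by name, but with earlier results of these data known, and each was read from its brightest probe by mean signal over all arrays. All 48 had a probe, among 20045 genes with a named probe in the table. The values come from 36 Illumina BeadArrays of LNCaP, an androgen dependent human prostate cancer line, in 7 groups of clone and treatment. HIF12 and HIF49 are LNCaP/HIF1a clones that carry a HIF1a transgene with its 2 regulatory prolines substituted, introduced by retrovirus, and LNCaP/Empty carries the empty vector. HIF12 and LNCaP/Empty were each measured with R1881, with vehicle and as Normal, and HIF49 as Normal only, with n = 6 arrays in LNCaP/Empty Normal and n = 5 in every other group. The R1881 cells received 1 nM of this synthetic androgen for 4 h after 96 h in charcoal stripped serum, and the vehicle cells received 0.01% ethanol for the same time. The labels do not define Normal: the same culture text, stripped serum included, stands on all samples. Each HIF1a line is 1 clone, so that HIF1a and the clone cannot be told apart, and since no source tells if replicate arrays stem from different cultures, the p-values measure only the spread between these arrays, which may be technical.

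Cell division starts when growth signals raise D-type cyclins, which with CDK4 release E2F factors to switch on the genes of S phase. Origins are licensed in G1, when CDC6 and CDT1 load the MCM helicase onto DNA, and fire in S phase, and a later wave of genes driven by FOXM1 and MYB complexes builds the mitotic machinery. In prostate cancer cells this program is coupled to androgen, and the amount of its RNA in a dish follows how many cells are dividing. In bulk RNA, fewer cycling cells and less RNA of these genes per cell cannot be told apart.

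The levels below are log2 signals after background correction and quantile normalization, and a difference of 1 on this scale is a 2-fold change. A gene passed in limma at an adjusted p under 0.05 over all 48105 probes with a change of at least 1.5-fold. Between 15374 and 17839 probes were detected per array (detection p under 0.01). Of the 48 genes, 45 were detected on all 36 arrays, MKI67 on 23, CDC6 on 10 and CCNE2, a G1/S cyclin, on 0, so that the levels of 4.43 to 4.82 for CCNE2 were not well above background. HIF1A itself, on the brightest of its 3 probes, averaged 10.24 in HIF12 Normal and 8.72 in LNCaP/Empty Normal, and was higher in HIF12 by 1.52 to 1.56 on the log2 scale in all 3 treatments (adjusted p between 0.000624 and 0.00124). A dimmer probe was higher in HIF12 by 1.17 to 1.48 (adjusted p between 1.78e-05 and 0.00153), and the remaining probe did not pass, at 0.04 with R1881, 0.15 with vehicle and -0.12 as Normal (adjusted p between 0.898 and 0.97). On the brightest probe HIF49 was between 10 and 10.35 on 4 arrays, but at 7.45 on the array labelled HIF49 Normal replicate 1, below every LNCaP/Empty array (lowest 7.93), and the HIF49 group did not pass over LNCaP/Empty (log2 0.88, adjusted p = 0.103). The HIF49 group did pass on the dimmer probe (log2 0.8, adjusted p = 0.0352), and not on the remaining one (log2 -0.04, adjusted p = 0.976). On the dimmer probe the array labelled HIF49 Normal replicate 1 was at 7.09, against 8.78 to 9.08 on the other 4 and a lowest LNCaP/Empty value of 7.05. On the remaining probe it was at 8.76, within the other 4 (7.68 to 8.95). The array went against its label on 2 of the 3 probes and stood apart in the 48 genes too, and the fits of HIF49 are given with and without it. Of the 8 measured markers of LNCaP, 7 were detected on every array and KLK2 on 33. Of the 9 of other cells, KRT5, KRT14, COL3A1 and PTPRC were detected on 0 arrays. VIM was detected on every array, with group means of 8.65 to 9.75, ITGA6 on Normal arrays only, and CAV1, COL1A1 and DCN on some arrays.

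The 48 genes stood lower on the R1881 and vehicle arrays than on the Normal arrays. The mean over the 48 log2 levels lay between 9.35 and 9.56 on the 20 R1881 and vehicle arrays and between 9.78 and 10.11 on the 16 Normal arrays, with no overlap. It averaged 9.474 ± 0.077 in HIF12 with R1881, 9.492 ± 0.018 in HIF12 with vehicle, 9.508 ± 0.035 in LNCaP/Empty with R1881 and 9.48 ± 0.051 in LNCaP/Empty with vehicle. These 4 groups lay within their spread of one another. Among the Normal groups it averaged 10.045 ± 0.041 in HIF49, 9.916 ± 0.051 in HIF12 and 9.885 ± 0.071 in LNCaP/Empty, where every HIF49 array (lowest 9.99, and 10.04 on the array labelled replicate 1) lay above every array of the other 2 lines (highest 9.962). These means are a description, with no test.

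**Figure D1:**
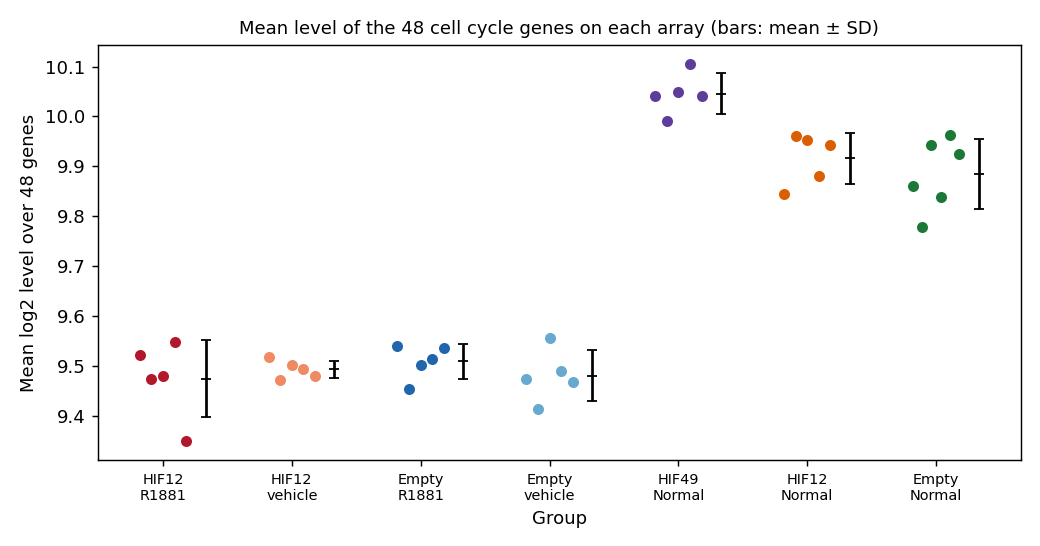
Mean log2 level over the 48 genes (vertical axis) on each array (points), by group, with the group mean and SD as bars. The R1881 and vehicle arrays sit between 9.35 and 9.56, below all Normal arrays at 9.78 to 10.11.

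**Figure D2:**
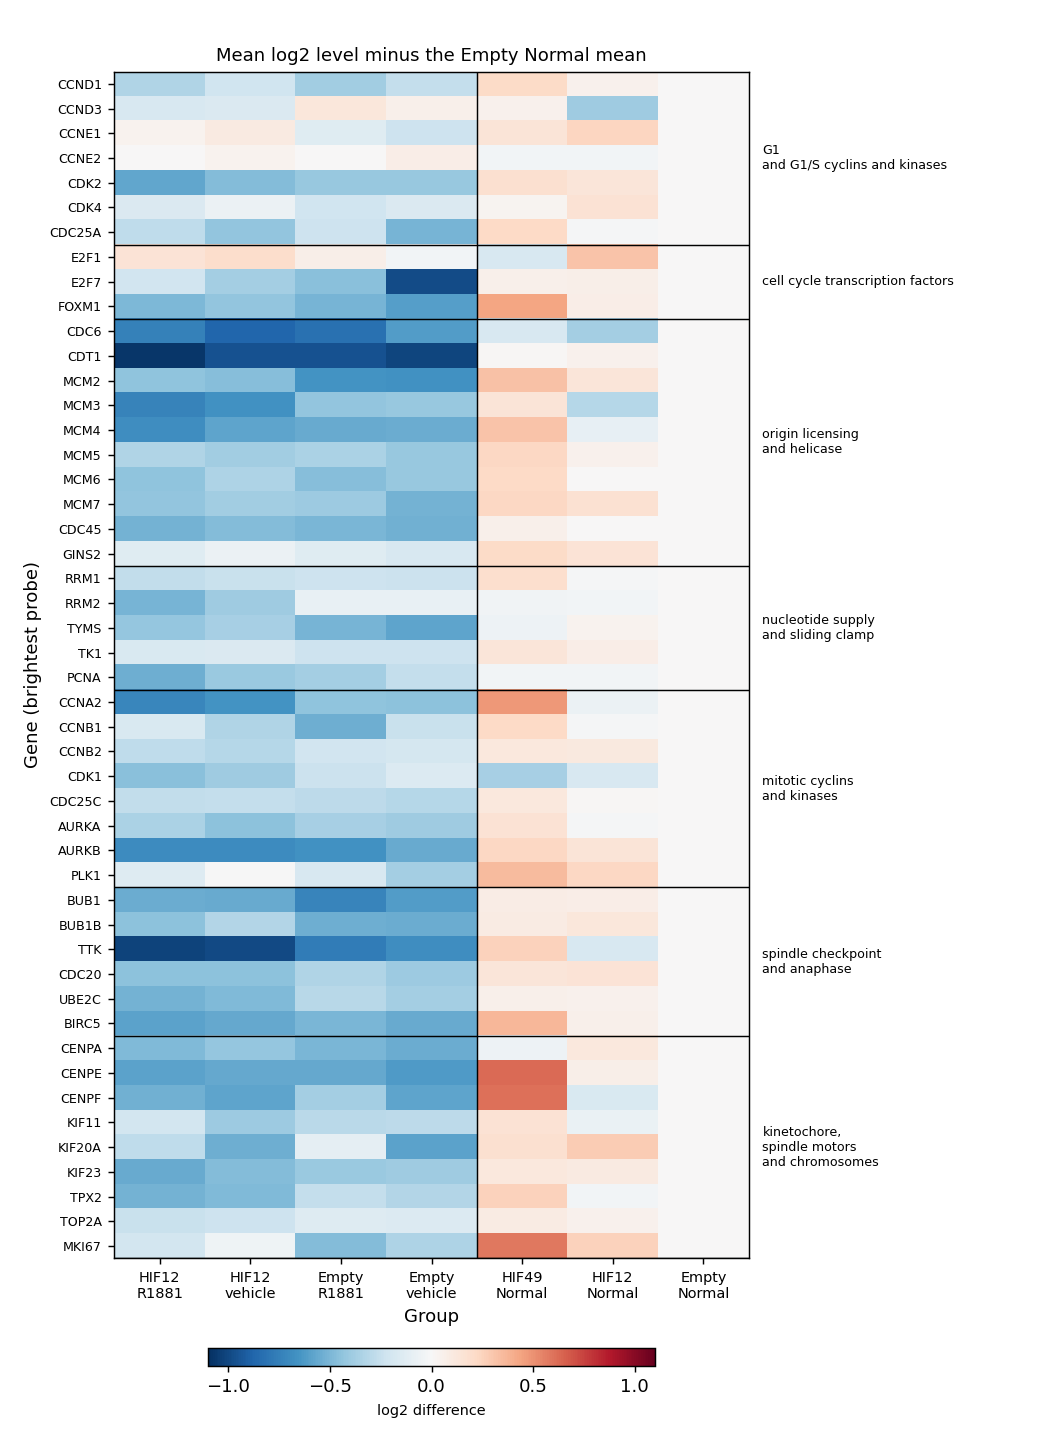
Mean log2 level of each of the 48 genes (rows, grouped by role) in 6 groups and in LNCaP/Empty Normal itself (columns), as the difference from the LNCaP/Empty Normal mean. Blue to the left of the line, in the R1881 and vehicle groups, runs through every role. HIF49 Normal is the column with most values above LNCaP/Empty Normal, at 40 of 48, or 43 in the fit without replicate 1. The share of all genes above it was not counted.

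Vehicle was compared with Normal in each line, a contrast of treatment labels in which whatever the Normal label covers cannot be told apart. With vehicle, 34 of the 48 genes were lower at an adjusted p under 0.05 in HIF12 and 34 were lower in LNCaP/Empty, where 7.54% and 8.72% of all genes were lower by the same rule in these 2 lines, and 13.4% and 15.5% of the genes detected on at least 5 arrays. No member was higher. Members lower in both lines numbered 31, and 46 of 48 had a negative difference in both, with no share of all genes counted for either. In the fit without the array labelled HIF49 Normal replicate 1, which enters the spread shared by all groups, 37 were lower in each line. Past 1.5-fold as well, 11 members passed in HIF12 and 9 in LNCaP/Empty, against 2.35% and 2.59% of all genes. Of the genes detected on at least 5 arrays, 4.21% and 4.68% passed as lower. BUB1, CDT1, CENPE, KIF20A, MCM2 and TTK passed in both lines, which is 54.5% of the calls in HIF12 and 66.7% of those in LNCaP/Empty. The median log2 difference of the 48 genes was -0.428 in HIF12 and -0.406 in LNCaP/Empty, beside medians of 0.000 and -0.008 over all genes. Most members that were lower changed by under 1.5-fold, and the count past that fold moved both ways: without background correction it was 4 in HIF12 and 3 in LNCaP/Empty, and with median scaling it was 19 in LNCaP/Empty. With each array left out in turn it was 8 to 13 in HIF12 and 5 to 13 in LNCaP/Empty, with the 5 where LNCaP/Empty Normal replicate 3 was left out. The vehicle arrays of 34 members in HIF12 and 27 in LNCaP/Empty lay wholly below the Normal arrays, as they did for 8.71% and 7.13% of all genes. Those of 1 member in HIF12 and 0 in LNCaP/Empty lay wholly above, beside 9.04% and 6.74% of all genes. Of the genes detected on at least 5 arrays, 31.2% in HIF12 and 24.7% in LNCaP/Empty were separate in either direction.

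Androgen markers of the line moved in the same contrast. KLK3, the PSA gene, was at a log2 difference of -2.14 in HIF12 and -1.97 in LNCaP/Empty. Of the 8 measured LNCaP markers, 3 passed as lower and 1 as higher in HIF12, and 4 as lower in LNCaP/Empty. Their summed signal was 11100 to 17500 on HIF12 vehicle arrays against 15100 to 16900 on HIF12 Normal arrays, and 10000 to 13800 on LNCaP/Empty vehicle arrays against 15500 to 17900 on LNCaP/Empty Normal arrays. Of 9 markers of other cells, 1 passed in each line, ITGA6, at -0.83 in HIF12 and -0.74 in LNCaP/Empty. ITGA6 was detected on 0 vehicle arrays of either line, so that these are fitted differences and not sizes. The summed signal of the 9 was 732 to 928 in HIF12 vehicle against 748 to 866 in HIF12 Normal, and 1010 to 1330 in LNCaP/Empty vehicle against 888 to 1040 in LNCaP/Empty Normal. The part of these genes in the result was not tested.

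**Figure D3:**
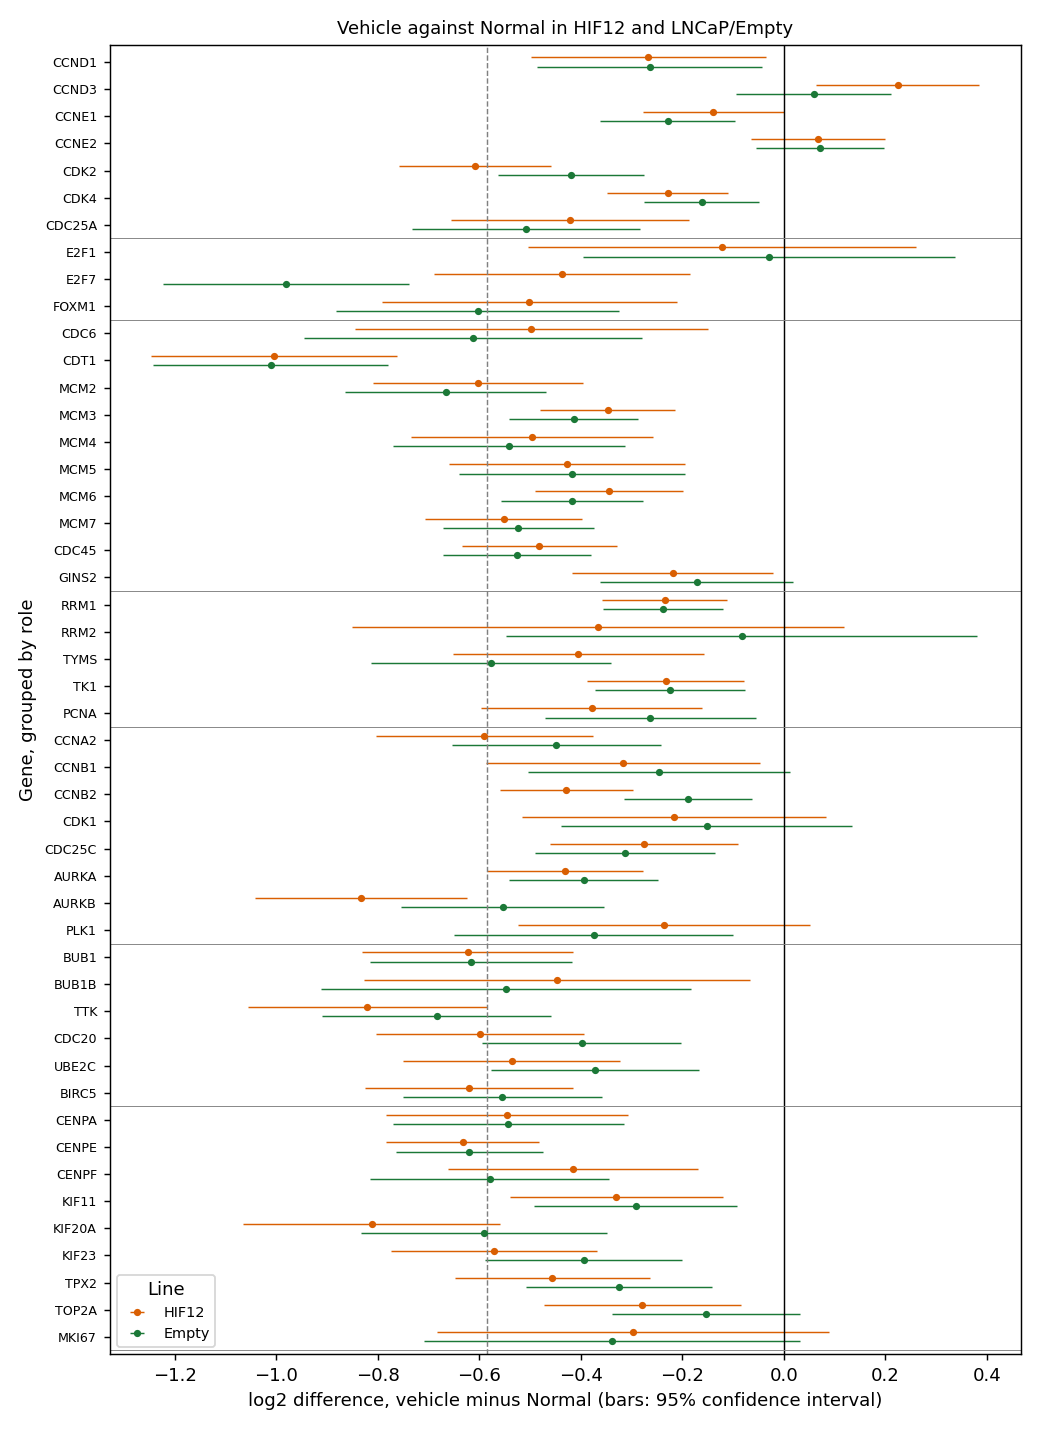
Log2 difference of vehicle minus Normal (horizontal axis) for each of the 48 genes (rows, by role) in HIF12 and LNCaP/Empty, with 95% confidence intervals from limma and a dashed line at 1.5-fold lower. Most points lie left of 0, and CDT1 lies farthest left in both lines, at 2.01-fold lower in HIF12 and 2.02-fold lower in LNCaP/Empty.

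The genes that license and open origins held the member with the largest difference in each line, CDT1. Of the 10, 2 passed in HIF12 and 3 in LNCaP/Empty, with median differences of -0.489 and -0.524, and 8 and 9 were lower at any size. CDT1, which brings the MCM helicase to origins, had levels of 8.82, 8.57, 8.44, 8.44 and 8.62 in HIF12 vehicle, against 9.60, 9.46, 9.74, 9.59 and 9.53 in HIF12 Normal. CDT1 in LNCaP/Empty vehicle was at 8.40, 8.31, 8.56, 8.58 and 8.79, against a lowest, median and highest level of 9.26, 9.54 and 9.74 in LNCaP/Empty Normal. Every vehicle array lay below every Normal array of its line. The fall was 2.01-fold in HIF12 (SE 0.12 on the log2 scale, adjusted p = 1.14e-07) and 2.02-fold in LNCaP/Empty (SE 0.11, adjusted p = 3.61e-08). The HIF12 arrays with R1881 (8.56, 8.44, 8.78, 8.41 and 8.17) and the LNCaP/Empty arrays with R1881 (8.63, 8.48, 8.48, 8.52 and 8.77) overlapped the vehicle arrays of their line.

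MCM2, a subunit of the helicase, was at 9.65, 9.35, 9.25, 9.43 and 9.41 in HIF12 vehicle, against 9.73, 10.03, 10.15, 9.86 and 10.33 in HIF12 Normal (log2 -0.60, SE 0.10, adjusted p = 4.95e-05). MCM2 was at 9.33, 8.89, 9.27, 9.29 and 9.30 in LNCaP/Empty vehicle, against 9.82, 9.88 and 9.99 as the lowest, median and highest in LNCaP/Empty Normal (log2 -0.67, SE 0.10, adjusted p = 4.4e-06). The groups did not overlap in either line, and 1 LNCaP/Empty vehicle array lay well below the other 4. CDC6, the ATPase that works with CDT1, was near background: it was detected on 0 of 5 HIF12 vehicle arrays and 1 of 5 HIF12 Normal arrays, and on 1 of 5 LNCaP/Empty vehicle arrays and 6 of 6 LNCaP/Empty Normal arrays. It was at 4.89, 5.08, 5.31, 5.06 and 5.76 in HIF12 vehicle, against 5.80, 6.02, 5.52, 5.71 and 5.53 in HIF12 Normal, which overlap (fitted log2 -0.50, adjusted p = 0.063). In LNCaP/Empty vehicle it was at 5.11, 5.53, 6.00, 5.22 and 5.53, against 5.86, 6.09 and 6.26 in LNCaP/Empty Normal, and passed there with overlapping arrays (log2 -0.61, SE 0.16, adjusted p = 0.00997). MCM3 to MCM7, the other helicase subunits, and CDC45, which joins them when an origin fires, differed by between -0.34 (MCM6) and -0.55 (MCM7) in HIF12 and between -0.41 (MCM3) and -0.54 (MCM4) in LNCaP/Empty, all under 1.5-fold with an adjusted p under 0.05. GINS2, a further part of the active helicase, was at -0.22 in HIF12 (adjusted p = 0.196) and -0.17 in LNCaP/Empty (adjusted p = 0.336).

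The sequences just before the starts of 4 members are shown because these genes moved together, and such promoters are known for E2F sites, for the CHR element bound by MYB and DREAM complexes, and for CCAAT boxes. They were read from RefSeq (GRCh38.p14), and sequences were at hand for 37 of the 48 genes. Each is the 250 bases before the annotated start, 5′ to 3′ on the strand of the gene, with matches on either strand in capitals.
CDT1: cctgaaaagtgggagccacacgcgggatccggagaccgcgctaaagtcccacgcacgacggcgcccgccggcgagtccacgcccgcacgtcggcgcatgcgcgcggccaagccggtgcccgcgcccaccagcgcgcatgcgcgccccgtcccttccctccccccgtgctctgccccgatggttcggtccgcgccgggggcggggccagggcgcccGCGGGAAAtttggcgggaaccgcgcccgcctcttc
E2F7: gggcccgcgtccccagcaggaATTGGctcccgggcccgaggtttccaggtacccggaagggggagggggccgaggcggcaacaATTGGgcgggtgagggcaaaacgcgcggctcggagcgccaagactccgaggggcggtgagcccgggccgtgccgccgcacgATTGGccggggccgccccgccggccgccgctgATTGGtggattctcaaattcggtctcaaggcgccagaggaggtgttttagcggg
KIF20A: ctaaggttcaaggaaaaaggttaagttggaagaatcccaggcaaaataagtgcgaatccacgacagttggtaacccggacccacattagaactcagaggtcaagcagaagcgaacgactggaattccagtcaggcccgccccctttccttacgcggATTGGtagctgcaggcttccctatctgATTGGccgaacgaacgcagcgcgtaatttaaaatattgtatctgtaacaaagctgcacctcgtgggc
CDC20: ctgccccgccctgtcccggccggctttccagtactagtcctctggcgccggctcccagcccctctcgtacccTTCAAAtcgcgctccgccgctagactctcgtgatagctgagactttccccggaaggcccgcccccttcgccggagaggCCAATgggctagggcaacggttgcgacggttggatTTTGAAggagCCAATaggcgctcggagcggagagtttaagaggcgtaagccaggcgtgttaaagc
CDT1 (chr16:88803539-88803788, plus strand) holds 1 E2F word, GCGGGAAA, that starts 35 bases before the start. E2F7 (chr12:77065570-77065819, minus strand) holds 4 CCAAT boxes, written ATTGG on this strand, and KIF20A (chr5:138178862-138179111, plus strand) holds 2. CDC20 (chr1:43358731-43358980, plus strand) holds 2 CHR words, TTCAAA and TTTGAA, and 2 CCAAT boxes. An E2F word (TTTCCCGC, TTTCGCGC, TTTGCCGC or TTTGGCGC) stood in 10 of the 37 windows (27.0%), against 2.79% of 27305 windows of the same length before all genes. A CHR word (TTTGAA) stood in 11 (29.7%, against 13.6%) and a CCAAT box in 27 (73.0%, against 33.0%). Words were counted on both strands, each motif by itself even where bases were shared, and a match is a description of letters, not a bound site.

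Of the 3 transcription factors, E2F7 and FOXM1 were lower with vehicle in both lines and E2F1 was not. E2F7, an atypical E2F that represses S phase genes and is itself an E2F target, was at 7.08, 7.26, 7.51, 7.41 and 7.30 in HIF12 vehicle, against 7.60, 7.94, 7.85, 7.57 and 7.78 in HIF12 Normal (log2 -0.44, adjusted p = 0.0171, under 1.5-fold). In LNCaP/Empty vehicle it was at 6.64, 6.25, 7.01, 6.81 and 6.81, against 7.40, 7.73 and 7.86 in LNCaP/Empty Normal (log2 -0.98, SE 0.12, adjusted p = 1.58e-07). Vehicle lay below Normal on every array of both lines. The difference was smaller in HIF12 by 0.54 (SE 0.17), which had an unadjusted p of 0.00337 but an adjusted p of 0.424 in limma, and so did not pass. FOXM1, the driver of mitotic genes, passed in LNCaP/Empty (log2 -0.60, SE 0.14, adjusted p = 0.002) and was at -0.50 in HIF12 (adjusted p = 0.0174).

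E2F1, the activator of S phase genes, was at 7.50, 7.18, 7.58, 7.47 and 7.45 in HIF12 vehicle, against 7.31, 8.07, 7.31, 7.66 and 7.44 in HIF12 Normal. It was at 7.31, 7.66, 6.70, 7.10 and 7.31 in LNCaP/Empty vehicle, against 6.89, 7.20 and 7.75 in LNCaP/Empty Normal. Its arrays overlapped in both lines (log2 -0.12, adjusted p = 0.844 in HIF12, and log2 -0.03, adjusted p = 0.97 in LNCaP/Empty).

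The genes of G1 had the smallest median difference of the roles, -0.229 in both lines. Of 7, CDK2 passed, in HIF12 alone (log2 -0.61, adjusted p = 1.71e-07), with -0.42 in LNCaP/Empty, where it had an adjusted p under 0.05 but not the fold. The difference between the 2 lines passed for no member (background 0.215% of all genes). At an unadjusted p under 0.05 in limma it had 2 members, where the share of all genes by that rule was not counted. CCND1, cyclin D1, was at 12.30, 12.09, 12.09, 12.12 and 12.21 in HIF12 vehicle, against 12.42, 12.34, 12.59, 12.37 and 12.44 in HIF12 Normal (log2 -0.27, adjusted p = 0.167). It was at 12.18, 11.92, 12.01, 12.03 and 12.45 in LNCaP/Empty vehicle, against 12.24, 12.38 and 12.57 in LNCaP/Empty Normal (log2 -0.26, adjusted p = 0.143). The HIF12 groups did not overlap and the LNCaP/Empty groups did. Without the array labelled HIF49 Normal replicate 1 the adjusted p of CCND1 was 0.0241 in HIF12 and 0.0184 in LNCaP/Empty. CCND3, cyclin D3, had the largest positive difference in HIF12, 0.22 (adjusted p = 0.07), and was at 0.06 in LNCaP/Empty. CDC25A, the phosphatase that activates CDK2, was at -0.42 in HIF12 and -0.51 in LNCaP/Empty, with an adjusted p under 0.05 in both. CDK4, the partner of D-type cyclins, was at -0.23 in HIF12 (adjusted p = 0.00673) and -0.16 in LNCaP/Empty (adjusted p = 0.0596), and CCNE1 at -0.14 (adjusted p = 0.267) and -0.23 (adjusted p = 0.017).

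None of the 5 genes of nucleotide supply and the sliding clamp passed at 1.5-fold, although 4 in HIF12 and 3 in LNCaP/Empty were lower at any size. PCNA, the clamp that holds polymerases on DNA, was at 11.79, 12.06, 12.12, 11.84 and 12.10 in HIF12 vehicle, against 12.27, 12.48, 12.22, 12.46 and 12.37 in HIF12 Normal, with no overlap (log2 -0.38, adjusted p = 0.0167). PCNA was at 12.07, 12.28, 12.20, 12.19 and 11.91 in LNCaP/Empty vehicle, against 12.00, 12.43 and 12.65 in LNCaP/Empty Normal, which overlap (log2 -0.26, adjusted p = 0.112). RRM2, the regulated subunit of ribonucleotide reductase, was at 8.00, 7.95, 8.08, 8.24 and 8.14 in HIF12 vehicle, against 8.40, 8.57, 8.52, 8.34 and 8.43 in HIF12 Normal. RRM2 in LNCaP/Empty vehicle was at 8.17, 8.09, 8.62, 8.54 and 8.56, against 8.05, 8.54 and 8.73 in LNCaP/Empty Normal. It was separate in HIF12 without passing (log2 -0.37, adjusted p = 0.474), and overlapped in LNCaP/Empty (log2 -0.08, adjusted p = 0.922). TYMS, thymidylate synthase, had the largest difference of this role in LNCaP/Empty, -0.58, just under 1.5-fold, with -0.40 in HIF12. RRM1, the large subunit of the reductase, and TK1, thymidine kinase, were at -0.24 and -0.23 in HIF12 and -0.24 and -0.22 in LNCaP/Empty, each with an adjusted p under 0.05.

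**Figure D4:**
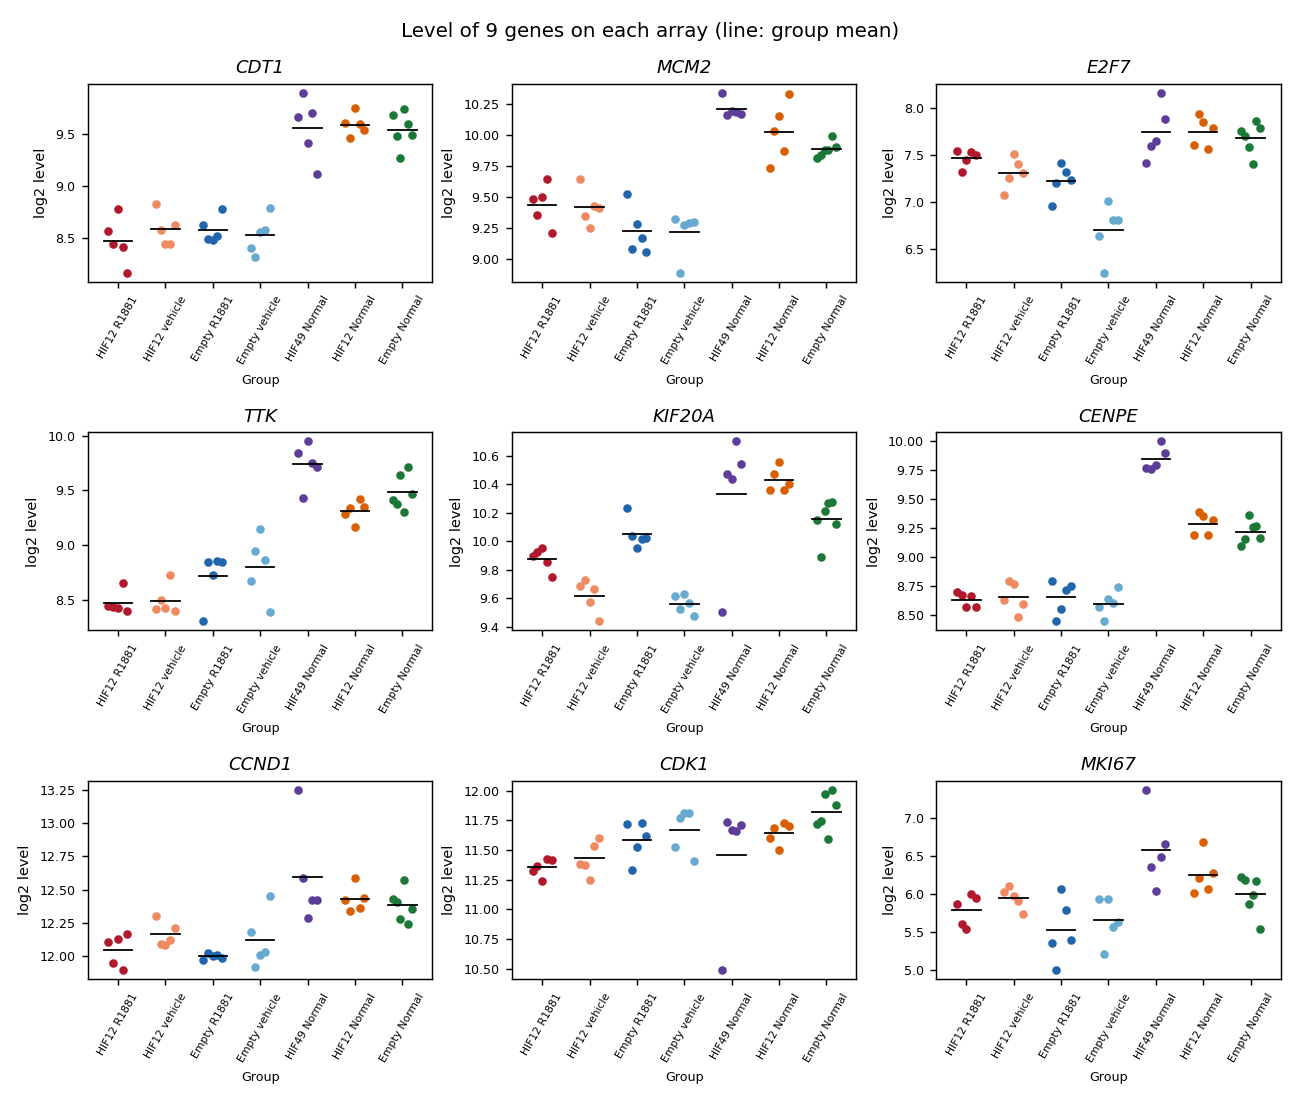
Log2 level (vertical axis) of 9 genes on each array (points) in the 7 groups, with a line at the group mean. CDT1, MCM2, TTK, KIF20A and CENPE are lower with vehicle than as Normal in both lines without overlap, while CDK1 and MKI67 overlap in both lines.

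Among the 8 mitotic cyclins and kinases, AURKB and CCNA2 passed in HIF12 and none in LNCaP/Empty, where 5 were lower at any size. AURKB, the kinase of the chromosomal passenger complex, was at 9.01, 8.91, 9.07, 8.89 and 8.51 in HIF12 vehicle, against 9.69, 9.66, 9.75, 9.69 and 9.77 in HIF12 Normal (log2 -0.83, SE 0.10, adjusted p = 2.43e-07). AURKB in LNCaP/Empty vehicle was at 9.02, 8.86, 9.04, 9.21 and 8.95, against 9.34, 9.56 and 9.76 in LNCaP/Empty Normal, separate but under 1.5-fold (log2 -0.55). Cyclin A2, CCNA2, differed by -0.59 in HIF12 (adjusted p = 0.00011) and -0.45 in LNCaP/Empty. AURKA, the kinase of spindle poles, was at 10.19, 10.07, 10.17, 9.90 and 10.11 in HIF12 vehicle, against 10.39, 10.59, 10.60, 10.41 and 10.61 in HIF12 Normal (log2 -0.43, adjusted p = 8.26e-05). It was at 10.12, 9.98, 10.18, 10.17 and 10.24 in LNCaP/Empty vehicle, against 10.39, 10.57 and 10.60 in LNCaP/Empty Normal (log2 -0.39, adjusted p = 0.000147). Both lines were separate, at under 1.5-fold. CCNB2, a B-type cyclin, and CDC25C, the phosphatase that activates CDK1, were lower in both lines at any size, with -0.43 and -0.28 in HIF12 and -0.19 and -0.31 in LNCaP/Empty. CCNB1, cyclin B1, and PLK1, the polo kinase of mitotic entry, had an adjusted p above 0.05 in both, at -0.32 and -0.24 in HIF12 and -0.25 and -0.38 in LNCaP/Empty.

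CDK1, the kinase that starts mitosis, was at 11.38, 11.38, 11.25, 11.54 and 11.60 in HIF12 vehicle, against 11.60, 11.69, 11.50, 11.73 and 11.70 in HIF12 Normal (log2 -0.22, adjusted p = 0.503). CDK1 in LNCaP/Empty vehicle was at 11.53, 11.77, 11.81, 11.81 and 11.41, against 11.59, 11.81 and 12.00 in LNCaP/Empty Normal (log2 -0.15, adjusted p = 0.671). Its groups overlapped in both lines.

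The 6 genes of the spindle checkpoint and of anaphase had a median difference of -0.609 in HIF12 and -0.551 in LNCaP/Empty, with 4 and 2 members past 1.5-fold. TTK, the checkpoint kinase MPS1, was at 8.41, 8.49, 8.42, 8.72 and 8.40 in HIF12 vehicle, against 9.28, 9.34, 9.16, 9.42 and 9.35 in HIF12 Normal (log2 -0.82, SE 0.12, adjusted p = 2.65e-06). TTK in LNCaP/Empty vehicle was at 8.67, 8.94, 9.14, 8.87 and 8.39, against 9.30, 9.44 and 9.71 in LNCaP/Empty Normal (log2 -0.68, SE 0.11, adjusted p = 2.34e-05). Neither line overlapped, and the LNCaP/Empty vehicle arrays were the more spread. BUB1, a checkpoint kinase at the kinetochore, differed by -0.62 in both lines (adjusted p = 3.16e-05 in HIF12 and 1.71e-05 in LNCaP/Empty). BIRC5, survivin, and CDC20, the activator of the anaphase promoting complex, passed in HIF12 (log2 -0.62 and -0.60), and were at -0.55 and -0.40 in LNCaP/Empty. BUB1B, the checkpoint inhibitor of CDC20, was at -0.45 in HIF12 (adjusted p = 0.155) and -0.55 in LNCaP/Empty (adjusted p = 0.0433). UBE2C, the ubiquitin conjugating enzyme of anaphase, was at -0.54 in HIF12 and -0.37 in LNCaP/Empty, with an adjusted p under 0.05 in both.

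Of the 9 genes of kinetochores, motors and chromosomes, CENPE and KIF20A passed in both lines. CENPE, the kinetochore motor that lines up chromosomes, was at 8.63, 8.80, 8.77, 8.49 and 8.60 in HIF12 vehicle, against 9.19, 9.39, 9.36, 9.19 and 9.32 in HIF12 Normal (log2 -0.63, SE 0.07, adjusted p = 1.02e-07). It was at 8.57, 8.45, 8.64, 8.60 and 8.74 in LNCaP/Empty vehicle, against 9.10, 9.22 and 9.37 in LNCaP/Empty Normal (log2 -0.62, SE 0.07, adjusted p = 5.47e-08). It had the smallest error among the members that passed in both lines, with no overlap. KIF20A, a kinesin of cytokinesis, was at 9.68, 9.73, 9.58, 9.66 and 9.44 in HIF12 vehicle, against 10.36, 10.47, 10.55, 10.36 and 10.40 in HIF12 Normal (log2 -0.81, SE 0.12, adjusted p = 1.19e-05). In LNCaP/Empty vehicle it was at 9.62, 9.52, 9.63, 9.57 and 9.48, against 9.89, 10.18 and 10.27 in LNCaP/Empty Normal (log2 -0.59, SE 0.12, adjusted p = 0.000527). Both lines were again separate. CENPA, the histone of centromeres, KIF23, a kinesin of the midzone, and TPX2, a spindle assembly factor, were lower in both lines under 1.5-fold, at -0.55, -0.57 and -0.46 in HIF12 and -0.54, -0.39 and -0.32 in LNCaP/Empty. The spindle kinesin KIF11 was at -0.33 in HIF12 (adjusted p = 0.0337) and -0.29 in LNCaP/Empty (adjusted p = 0.052), and TOP2A, the topoisomerase of chromosome condensation, at -0.28 (adjusted p = 0.0604) and -0.15 (adjusted p = 0.405).

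CENPF, a large kinetochore protein made in G2, was at 8.80, 8.82, 8.83, 9.10 and 8.84 in HIF12 vehicle, against 9.27, 9.44, 9.35, 9.12 and 9.27 in HIF12 Normal (log2 -0.42, adjusted p = 0.0212). It was at 9.12, 8.56, 9.05, 8.74 and 8.90 in LNCaP/Empty vehicle, against 9.32, 9.45 and 9.60 in LNCaP/Empty Normal (log2 -0.58, adjusted p = 0.000468), both under 1.5-fold and without overlap. MKI67, the Ki-67 antigen, was read near background, at 6.03, 6.11, 5.97, 5.92 and 5.75 in HIF12 vehicle, against 6.01, 6.22, 6.68, 6.07 and 6.28 in HIF12 Normal (log2 -0.30, adjusted p = 0.46). In LNCaP/Empty vehicle it was at 5.94, 5.22, 5.94, 5.58 and 5.63, against 5.54, 6.08 and 6.23 in LNCaP/Empty Normal (log2 -0.34, adjusted p = 0.328). Its groups overlapped in both lines. Counted over all roles in the fit of all 36 arrays, 11 members had no adjusted p under 0.05 in either line: CCNB1, CCND1, CCND3, CCNE2, CDK1, E2F1, GINS2, MKI67, PLK1, RRM2 and TOP2A. A p above the threshold does not show that they stayed level. Without the array labelled HIF49 Normal replicate 1, CCND1 was under 0.05 in both lines and TOP2A in HIF12 (adjusted p = 0.0139). RRM2 in HIF12 was then at an adjusted p of 0.075.

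Other probes of the same genes were compared. Of the 17 members with several probes, all probes had the same sign in 16 in HIF12 (the exception was CDC25C) and in 14 in LNCaP/Empty (CCNE1, CDK1 and MCM7 differed). Of the 18 other detected probes, 17 had a negative difference in each line.

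R1881 for 4 h was compared with vehicle to ask how the genes answered acute androgen. No member passed, in HIF12 (background 1.23% of all genes) or in LNCaP/Empty (background 1.69%). At an unadjusted p under 0.05, limma had 1 member in HIF12 and 4 in LNCaP/Empty, where the share of all genes by that rule was not counted. The 95% interval of the difference lay within 1.5-fold either way for 47 of 48 members in HIF12, all but RRM2, and for 46 in LNCaP/Empty, all but E2F7 and KIF20A. These 2 were higher with R1881 in LNCaP/Empty at an adjusted p under 0.05 but under 1.5-fold. At that p at any size, 1.98% of all genes were higher, and 3.47% of the genes detected on at least 5 arrays. Neither E2F7 nor KIF20A kept that p with median scaling or without LNCaP/Empty vehicle replicate 2. E2F7 lost it with only the compared arrays too, and over the 10 fits that left out 1 array E2F7 kept it in 8 and KIF20A in 4. E2F7 was at 6.96, 7.20, 7.42, 7.32 and 7.24 with R1881, against 6.64, 6.25, 7.01, 6.81 and 6.81 with vehicle, which overlap by 1 array (log2 0.52, SE 0.12, adjusted p = 0.0141). KIF20A was at 10.23, 10.04, 9.95, 10.02 and 10.02 with R1881, against 9.62, 9.52, 9.63, 9.57 and 9.48 with vehicle, which do not overlap (log2 0.49, SE 0.12, adjusted p = 0.0269). In HIF12, E2F7 was at 7.55, 7.32, 7.45, 7.54 and 7.50 with R1881, against 7.08, 7.26, 7.51, 7.41 and 7.30 with vehicle, and overlapped (log2 0.16, adjusted p = 0.935). KIF20A in HIF12 was at 9.90, 9.92, 9.95, 9.85 and 9.75 with R1881, against 9.68, 9.73, 9.58, 9.66 and 9.44 with vehicle, separate but not past the test (log2 0.26, adjusted p = 0.687). The vehicle arrays here are those set against Normal above, so that these values do not stand apart from that comparison. The androgen effect of HIF12 minus that of LNCaP/Empty passed for 0 members (background 0.00998%).

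HIF12 was compared with LNCaP/Empty to ask what the stable HIF1a clone changed in the cycle. E2F7 passed with vehicle (background 1.68% of all genes), and no member passed with R1881 (2.33%) or as Normal (1.84%). At an unadjusted p under 0.05 limma had 10 members with R1881, 6 with vehicle and 7 as Normal. For that rule the share of all genes was not counted, so these counts cannot be judged against it. E2F7 was at 7.08, 7.26, 7.51, 7.41 and 7.30 in HIF12 vehicle, against 6.64, 6.25, 7.01, 6.81 and 6.81 in LNCaP/Empty vehicle, without overlap (log2 0.61, SE 0.12, adjusted p = 0.00253). Without HIF12 vehicle replicate 3, HIF12 vehicle replicate 4 or LNCaP/Empty vehicle replicate 2 the difference was 0.56, 0.58 and 0.49 on the log2 scale, under 1.5-fold. With vehicle, CCNE1, cyclin E1, was at 8.96, 8.87, 8.73, 8.66 and 8.63 in HIF12, against 8.47, 8.37, 8.55, 8.32 and 8.51 in LNCaP/Empty (log2 0.33, adjusted p = 0.00331), without overlap and under 1.5-fold, but with the mean of all its probes the adjusted p was 0.997.

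MCM3, a helicase subunit, was lower in HIF12 in all 3 treatments, at under 1.5-fold. It was at 11.49, 11.52, 11.37, 11.49 and 11.54 in HIF12 with R1881, against 11.69, 11.77, 11.72, 11.84 and 11.89 in LNCaP/Empty with R1881 (log2 -0.30, adjusted p = 0.00393). It was at 11.51, 11.57, 11.54, 11.57 and 11.56 in HIF12 vehicle, against 11.90, 11.63, 11.84, 11.87 and 11.76 in LNCaP/Empty vehicle (log2 -0.25, adjusted p = 0.0261). It was at 11.80, 11.96, 11.90, 11.90 and 11.91 in HIF12 Normal, against 12.11, 12.26 and 12.28 in LNCaP/Empty Normal (log2 -0.32, adjusted p = 0.0012). No HIF12 array reached a LNCaP/Empty array of the same treatment. With vehicle its adjusted p rose over 0.05 in 6 of the 10 fits that left out 1 array, with median scaling, with normexp at an offset of 50 and with only the compared arrays, and with R1881 it did so with median scaling (log2 -0.19, adjusted p = 0.261). CCND3 was at 10.99, 10.99, 11.08, 10.86 and 10.98 in HIF12 Normal, against 11.32, 11.36 and 11.46 in LNCaP/Empty Normal (log2 -0.39, adjusted p = 0.00101), and also lower with R1881 (log2 -0.30, adjusted p = 0.0222), a difference whose adjusted p rose over 0.05 with median scaling, with only the compared arrays and with 5 of the 10 arrays left out in turn. The median difference over the 48 genes was -0.02 with R1881, 0.019 with vehicle and 0.047 as Normal, and the 95% interval lay within 1.5-fold for 45, 41 and 45 members.

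HIF49, compared as Normal with LNCaP/Empty, had CENPE and CENPF higher past 1.5-fold (background 1.49% of all genes), and CENPF higher than in HIF12 (background 2.8%). Neither member passed over LNCaP/Empty with the deposited table, without background correction or with normexp at an offset of 50, where 0 members passed. CENPE was at 9.77, 9.76, 9.80, 10.00 and 9.90 in HIF49, against 9.10, 9.22 and 9.37 in LNCaP/Empty and 9.19, 9.39, 9.36, 9.19 and 9.32 in HIF12. It was above both on every array, by 0.62 over LNCaP/Empty (SE 0.07, adjusted p = 1.51e-07) and by 0.56 over HIF12 (adjusted p = 2.21e-06). CENPF was at 10.55, 9.85, 9.90, 10.04 and 9.98 in HIF49, against 9.32, 9.45 and 9.60 in LNCaP/Empty and 9.27, 9.44, 9.35, 9.12 and 9.27 in HIF12. It was also above both throughout, by 0.61 over LNCaP/Empty (SE 0.12, adjusted p = 0.000997) and by 0.77 over HIF12 (SE 0.12, adjusted p = 3.38e-05), with its highest value on the array labelled HIF49 Normal replicate 1. Without that array CENPE was at 0.64 over LNCaP/Empty (adjusted p = 3.56e-07) and CENPF at 0.49 (adjusted p = 0.00612), so that 1 member passed there, while CENPF (0.65) and CCNA2 (0.62) passed over HIF12, and CENPE was at 0.57 there (adjusted p = 3.7e-06). The comparisons of HIF49 and of HIF12 with LNCaP/Empty share the LNCaP/Empty arrays.

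CCNA2 was at 10.53, 10.66, 10.85, 11.07 and 11.10 in HIF49, against 10.29, 10.34, 10.13, 10.21 and 10.54 in HIF12, with the lowest HIF49 array just under the highest HIF12 array (log2 0.54, adjusted p = 0.00065). Over LNCaP/Empty CCNA2 was at 0.48 (adjusted p = 0.00318) and BIRC5 at 0.37 (adjusted p = 0.0264). MCM3 was at 12.62, 12.29, 12.32, 12.27 and 12.31 in HIF49, above every HIF12 Normal array (log2 0.46, adjusted p = 5.72e-06), and CCND3 was at 11.55, 11.46, 11.32, 11.48 and 11.24, also above HIF12 throughout (log2 0.43, adjusted p = 0.000303). MKI67, detected on all 5 HIF49 arrays, was at 7.37, 6.35, 6.05, 6.49 and 6.66 in HIF49 and did not pass over LNCaP/Empty (log2 0.58, adjusted p = 0.0822). At an adjusted p under 0.05, limma had 4 members higher over LNCaP/Empty and 7 over HIF12, beside 2.53% and 4.38% of all genes. Over all genes the median difference was 0.005 over LNCaP/Empty and over HIF12, and the share above 0 was not counted. The median difference of the 48 genes was 0.152 over LNCaP/Empty, with 40 above 0, and 0.073 over HIF12, with 36 above 0. Without the array labelled HIF49 Normal replicate 1 these were 0.151 with 43, and 0.091 with 41. The same fit had CCNA2 at 0.56 (adjusted p = 0.000483), BIRC5 at 0.26 (adjusted p = 0.135) and MKI67 at 0.39 (adjusted p = 0.338) over LNCaP/Empty, and MCM3 at 0.40 (adjusted p = 2e-05) and CCND3 at 0.40 (adjusted p = 0.00149) over HIF12.

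The array labelled HIF49 Normal replicate 1 held the highest value of all 36 arrays for 19 of the 48 genes and the lowest for 3, RRM2, CDK1 and TYMS. On any other array at most 7 genes were highest and at most 10 lowest. CDK1 was at 10.49 there and at 11.74, 11.67, 11.66 and 11.71 on the other 4. RRM2 was at 6.82 there, against 8.89, 8.63, 8.58 and 9.29, and FOXM1 was at 10.46, against 9.17 to 9.41. The array correlated with its own group at 0.971 to 0.9778 over all probes. Among markers of the line, KRT18 was at 6.83 there, against 8.17 to 8.67 on the other 4 HIF49 arrays, and HOXB13 at 11.6, against 10.4 to 10.52.

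**Figure D5:**
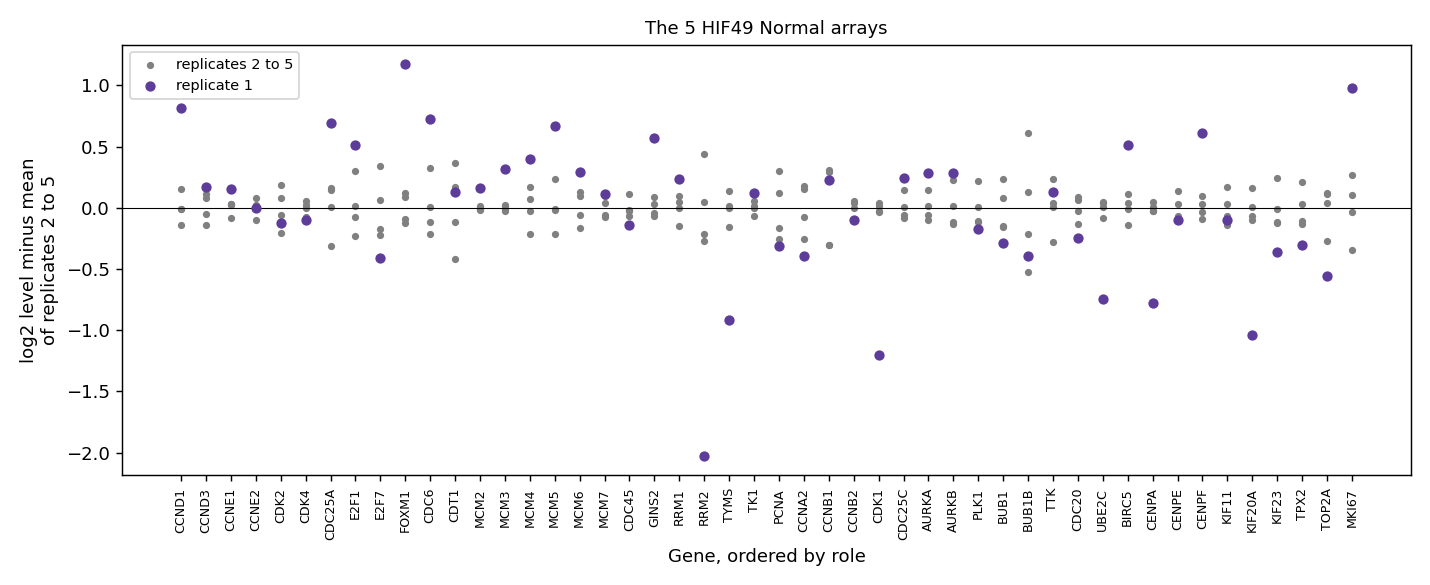
Log2 level of the 48 genes (horizontal axis, by role) on the 5 HIF49 Normal arrays, each minus the mean of replicates 2 to 5 (vertical axis). The array labelled replicate 1 lies far below the others in CDK1 and RRM2 and above them in FOXM1 and CENPF.

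Other genes of the cell cycle, from lists beside the 48, were also lower in the contrast of vehicle with Normal, where 2.35% of all genes passed as lower in HIF12 and 2.59% in LNCaP/Empty. Of 45 other mitotic genes, 15 passed as lower in HIF12 and 14 in LNCaP/Empty, with medians of -0.442 and -0.449. The largest were GTSE1 (-0.82), ZWINT (-0.80) and NCAPD2 (-0.77), a condensin subunit, in HIF12, and ZWINT (-0.81), a kinetochore protein, ANLN (-0.81), the anillin of the cleavage furrow, and ZWILCH (-0.74) in LNCaP/Empty. Of 39 other replication genes, 6 passed as lower and 1 as higher in HIF12, and 6 as lower in LNCaP/Empty, with a median of -0.223 in each. RFC3, a subunit of the clamp loader, was at -0.92 and -0.93, and GINS3, of the active helicase, at -0.87 and -0.75, in HIF12 and LNCaP/Empty, and ORC4, of the origin recognition complex, was the one that was higher in HIF12 (0.65). Of 13 other E2F and MYB factors, E2F2 passed as lower in both lines (-0.65 in HIF12 and -0.74 in LNCaP/Empty) and LIN9, of the MYB complex, in LNCaP/Empty (-0.59). Of 12 other cyclins and kinases, the G1 kinase CDK6 passed in both, at -0.87 in HIF12 and -0.85 in LNCaP/Empty, but it was detected on 0 vehicle arrays of either line, so that these are fitted differences and not sizes. None of the 9 measured CDK inhibitors and RB family genes passed, with medians of 0.141 in HIF12 and 0.068 in LNCaP/Empty.

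In the other comparisons few genes of these lists passed. With R1881, where 1.23% of all genes passed in HIF12 and 1.69% in LNCaP/Empty, CCNG2, a cyclin known for growth arrest, was lower in HIF12 (-0.62, adjusted p = 0.00711) and in LNCaP/Empty (-0.83, adjusted p = 8.06e-05), and KIF22 (0.65) and ORC5 (0.60) were higher in LNCaP/Empty. POLE (0.63) and POLD1 (0.61), catalytic subunits of replicative polymerases, were higher in R1881-treated HIF12 than in R1881-treated LNCaP/Empty, where 2.33% of all genes passed. ASPM, a spindle pole protein, was higher in HIF49 than in LNCaP/Empty (0.62, adjusted p = 5.27e-06) and than in HIF12 (0.69), beside 1.49% and 2.8% of all genes. It was not alone over HIF12, where 4 of the 45 other mitotic genes and 1 of the 13 other E2F and MYB factors passed as higher.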

How the data were processed

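The deposited table held Illumina scanner intensities per probe, per the file headers without normalization, with a detection p-value each, as deposited by the authors. A further table of intensities deposited by the authors, whose values share 1 distribution on a linear scale as quantile normalization leaves them, served as an alternative. Probes were named through the platform annotation: 30113 of 48107 probes had 1 gene, 8 several and 17986 none. The methods name a HumanWG v2 BeadArray, an earlier design than that of the probe names. The design text states 42 samples, of which 36 are analyzed here.

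Background was corrected by the nec function (limma 3.58.1, R 4.3.3), with negative controls inferred from the detection p-values and an offset of 16, followed by quantile normalization and log2 transformation. Of all probes, 2 lacked values and were not tested, and no dim probe was removed. Raw array medians were 111.12 to 136.3, and the number of arrays, not depth, limits the precision. A model with 1 mean per group was fitted to all 36 arrays (lmFit, contrasts, eBayes) with Benjamini-Hochberg adjustment over 48105 probes, and was tested on simulated data. Each adjusted p is limma's. Arrays correlated at 0.9645 to 0.9926 over all probes, and 35 of 36 correlated best with their own group, the exception being HIF49 Normal replicate 4.

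The 48 genes, their roles and the other gene lists were chosen with earlier results of these data known. Values on every array are given for up to 5 increases and 5 decreases among the members that passed in each comparison. They are also given for CCND1, CDK1, E2F1, CDC6, MCM2, RRM2, PCNA, MKI67, AURKA and CENPF. CCNE2, followed with these, was not detected and is given as a range only. LNCaP/Empty Normal is given as lowest, median and highest. Up to 3 genes per other list are named where they passed. MCM3, CCND3, CCNE1, CCNA2, the per-array values of KIF20A with R1881 and the 11 members without a call were picked after their values were seen. Some listed genes are not reported here. Alternatives were other background corrections and scalings, the deposited normalized table, array weights, the mean of all probes of a gene, detected probes only, blocks of replicate or running number, and each array left out.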

Additional observations from a re-analysis of the deposited data

Results flagged for a closer look

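In 14 of 168 sets of values checked, 1 array lay far from the rest of its group by Dixon's ratio of gap to range, where chance marks about 1 in 20. For 6 of them that array was the one labelled HIF49 Normal replicate 1: CDK1 at 10.49, RRM2 at 6.82 and KIF20A at 9.5 were below the other 4 arrays, and CENPF at 10.55, FOXM1 at 10.46 and MCM2 at 10.34 above them. TTK, the checkpoint kinase, was marked on HIF12 R1881 replicate 4 at 8.66 (others 8.39 to 8.44), on HIF12 vehicle replicate 4 at 8.72 (others 8.4 to 8.49) and on LNCaP/Empty R1881 replicate 1 at 8.3 (others 8.73 to 8.85). BIRC5 was at 9.49 on HIF12 R1881 replicate 5 (others 9.87 to 9.96). CENPF was at 9.1 on HIF12 vehicle replicate 4 (others 8.8 to 8.84). FOXM1 was at 9.42 on HIF12 Normal replicate 3 (others 9.06 to 9.12). In LNCaP/Empty vehicle, BUB1 was at 8.12 on replicate 5 (others 8.64 to 8.74) and MCM2 at 8.89 on replicate 2 (others 9.27 to 9.33).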

How the results depend on the processing

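No member that passed, and none of the 11 genes followed throughout in vehicle against Normal, changed sign past the threshold under the alternatives run. Medians of the 48 genes near 0 did change sign: that of HIF12 against LNCaP/Empty with R1881 ran between -0.022 and 0.104 over settings other than left-out arrays, that of R1881 in LNCaP/Empty between -0.017 and 0.023, and that of R1881 in HIF12 between -0.043 and 0.014. For HIF12 against LNCaP/Empty with R1881, the 2 members lower at any size became 0, and 2 were higher, with median scaling. Counts of members past 1.5-fold moved most, and 90 of the 91 calls of single genes that were lost kept an adjusted p under 0.05 and fell under that fold. The other was CDC6 in LNCaP/Empty vehicle against Normal without LNCaP/Empty vehicle replicate 1 (-0.52, adjusted p = 0.0501). For vehicle against Normal, the 11 members in HIF12 became 4 with the deposited table, 4 with no background correction, 5 with normexp at an offset of 50 and 34 with no fold threshold, and the 9 in LNCaP/Empty became 3, 3, 4 and 34, and 19 with median scaling. At any size, the members lower in that contrast numbered 28 to 37 in HIF12 and 29 to 38 in LNCaP/Empty over all settings. Those higher numbered 0 to 1 in HIF12 and 0 in LNCaP/Empty. The 1 member of HIF12 against LNCaP/Empty with vehicle became 0 with the deposited table, no background correction or normexp, and 3 with no fold threshold. With no fold threshold the counts were 2 with R1881 and 3 as Normal for HIF12 against LNCaP/Empty. By the same rule 6.27% and 4.82% of all genes passed there, and 4.5% with vehicle. The counts were 2 for R1881 in LNCaP/Empty (2.96% of all genes), 4 for HIF49 against LNCaP/Empty (4.51%) and 7 for HIF49 against HIF12 (7.54%). The 2 members of HIF49 against LNCaP/Empty became 1 with array weights, the mean of all probes or running numbers in blocks of 12, and 0 with the deposited table, no background correction or normexp. The 1 of HIF49 against HIF12 became 2 with array weights. Beyond the fold, the cause was not tested. The threshold without a fold, and the fit without HIF49 Normal replicate 1, were chosen after seeing the data.

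With each array left out in turn, the count was 8 to 13 in HIF12 and 5 to 13 in LNCaP/Empty for vehicle against Normal (5 without LNCaP/Empty Normal replicate 3). It was 0 to 1 for HIF12 against LNCaP/Empty with vehicle, 0 to 1 for R1881 in LNCaP/Empty (1 without LNCaP/Empty R1881 replicate 1 or LNCaP/Empty vehicle replicate 3), 1 to 3 for HIF49 against LNCaP/Empty (1 without HIF49 Normal replicate 1, HIF49 Normal replicate 4 or LNCaP/Empty Normal replicate 2), and 1 to 2 for HIF49 against HIF12 (2 without HIF49 Normal replicate 1, HIF49 Normal replicate 2 or HIF12 Normal replicate 5). With a replicate block the counts for vehicle against Normal were 11 in HIF12 and 8 in LNCaP/Empty. Same-numbered arrays shared only a number: 18 of 105 pairs correlated over 0.1 (median 0.007).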
